A study of Mus musculus with 8 samples.

Results

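The BCL2 family genes described here are 10 genes taken by symbol: the pro-survival genes Bcl2, Bcl2l1, Mcl1 and Bcl2a1b, the effectors Bax and Bak1, the BH3-only genes Bcl2l11, Bbc3 and Pmaip1, and Bcl2l12. All 10 were found among the 55421 genes of the count table, and all 10 were among the 12997 genes that passed the filter on low counts. They were measured by bulk RNA sequencing in 8 libraries of germinal centre B cells, pulled from mouse spleen with a peanut agglutinin (PNA) bead kit on day 10 of an immune response. The 4 groups, each of 2 libraries, were Smarca4+/- CC, Smarca4+/+ CC, Smarca4+/- CB and Smarca4+/+ CB. All mice were C57BL/6 aged 8 to 10 weeks, and no group lacked immunization. Smarca4, also called Brg1, drives SWI/SNF complexes, which move nucleosomes with energy from ATP, and the heterozygous mice kept 1 intact copy. CB and CC are read here as centroblasts, the dividing cells of the dark zone, and centrocytes, the cells of the light zone. How the fractions were separated, whether the deletion was limited to B cells, and whether replicates came from different mice are not stated in the labels, so each p measures a spread between libraries that may be technical.

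BCL2 family proteins decide whether the outer mitochondrial membrane is opened and caspases are set off. Pro-survival members hold the effectors BAX and BAK in check, and BH3-only members bind and block the pro-survival members or act on the effectors directly. Germinal centre B cells are known for a low level of BCL2, whose gene the repressor BCL6 is known to hold down in human cells, and for their dependence on MCL1, and they die by default unless signals through the B cell receptor and from T cells rescue them in the light zone.

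Depth differed by fraction: totals were 526353 to 837558 counts in CC and 18357578 to 24341805 in CB, and the mean CB total was 32.7 times the mean CC total. Most low counts were even: 84.1% to 92% of the genes with 1 to 20 counts in a CC library, and 75.1% to 81.1% in a CB library. Levels are given as CPM, the counts divided by a library total scaled by TMM. A count of 0 was read as up to 3 counts over both libraries of a group, which covers counting error only. The floor was 1.88 CPM in Smarca4+/- CC, 2.56 in Smarca4+/+ CC, 0.0754 in Smarca4+/- CB and 0.0730 in Smarca4+/+ CB. CC libraries of a group differed by more than counting error (chi-square per degree of freedom 8.81 in Smarca4+/- and 7.23 in Smarca4+/+). Folds given below as at least a value do not cover that spread. Why most low counts were even was not tested: if reads were counted more than once, for instance both mates of a pair, these floors would be too low and counting intervals too narrow, so bounds and intervals are also given from counts halved and rounded up. Smarca4 had 734 and 702 CPM in Smarca4+/- CB against 897 and 1002 in Smarca4+/+ CB, and 244 and 311 CPM in Smarca4+/- CC against 322 and 316 in Smarca4+/+ CC. It was lower in all 4 heterozygous libraries than in any wild-type library of the same fraction, although neither difference passed the adjusted test (log2 fold change -0.40, adjusted p = 1 in CB, and -0.20, adjusted p = 0.607 in CC, edgeR). B cell identity genes were abundant in every library (4160 to 5930 CPM summed over 8 genes). Genes of germinal centre B cells, 9 in all, were lower in CC. They summed to 1450 to 1930 CPM in Smarca4+/- CC, against 2680 to 2740 in Smarca4+/- CB. In Smarca4+/+ they summed to 1280 to 1380 CPM in CC, against 2700 to 2780 in CB. Of these 9 genes, 2 passed as lower in Smarca4+/- CC against CB and 4 in Smarca4+/+. Of 9 tested dark zone genes, 6 fell in Smarca4+/- CC against Smarca4+/- CB and 7 in Smarca4+/+ CC against Smarca4+/+ CB, and of 12 light zone genes, a list that holds Bcl2a1b, 6 and 4 rose in the same contrasts.

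Set side by side per kilobase of exon, which allows levels to be compared between genes, Mcl1 was the most abundant of the 10 genes in every group and Bak1, an effector, the next. Mcl1 stood at 127 ± 22.6 CPM per kilobase in Smarca4+/- CC, 125 ± 34.0 in Smarca4+/+ CC, 142 ± 3.97 in Smarca4+/- CB and 148 ± 3.25 in Smarca4+/+ CB, with SD over n = 2 each. Bak1 stood at 32.9 ± 1.29, 44.6 ± 20.9, 50.6 ± 2.07 and 48.7 ± 0.523 CPM per kilobase in those groups. Neither gene's libraries overlapped with the next gene in the order. At the other end, Bcl2 was last of the 10 in both CB groups, at 0.0906 CPM per kilobase in Smarca4+/- CB and 0.150 in Smarca4+/+ CB. In CC it held position 9 of 10 in Smarca4+/- (2.95 CPM per kilobase, overlapping with its lower neighbour Bbc3) and position 4 in Smarca4+/+ (6.24 CPM per kilobase, overlapping with its lower neighbour Bcl2l1). Between these ends most neighbours overlapped: in Smarca4+/- CC, Bcl2a1b, Bcl2l1, Bax and Bcl2l12 ran from 11.6 to 6.90 CPM per kilobase, each overlapping with the next. The place of Bcl2a1b in this order is uncertain. Of its 50-base stretches 20.8%, and of its 100-base stretches 43.2%, occur in no other gene. Of its exons, 49.1% are shared with the predicted gene Gm29094.

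**Figure D1:**
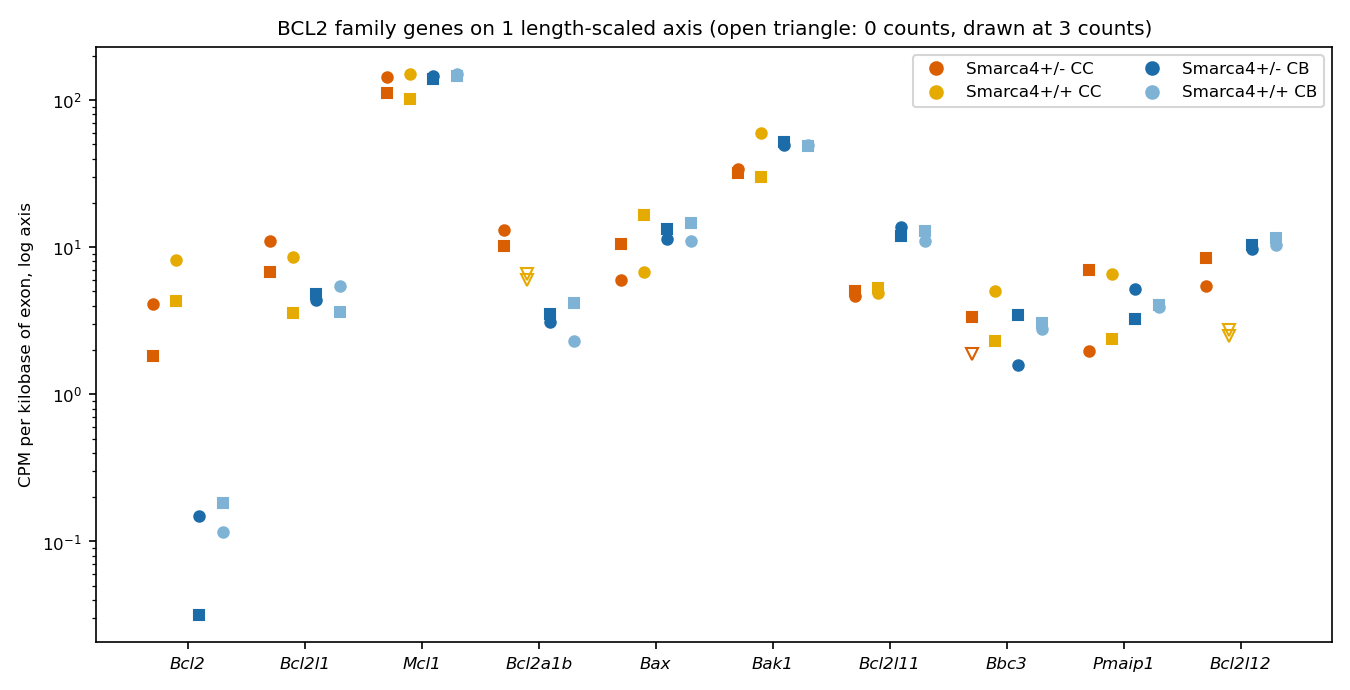
Level of each of the 10 genes per kilobase of exon (CPM per kilobase, log axis) in each library, coloured by group, with circles for replicate 1 and squares for replicate 2. Mcl1 and Bak1 lie above the other genes in all groups, and Bcl2 lies below them in both CB groups, at 0.0315 to 0.183 CPM per kilobase.

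Each fraction contrast asks how CC differ from CB within a genotype. Of the 10 genes, 2 passed the test in Smarca4+/- CC against Smarca4+/- CB, 1 higher and 1 lower, where 3.67% of all tested genes passed (2.17% higher and 1.5% lower). In Smarca4+/+ CC against Smarca4+/+ CB 3 of the 10 passed, 1 higher and 2 lower, where 7.49% of all tested genes passed (3.72% higher and 3.76% lower). The test was edgeR's quasi-likelihood test with Benjamini-Hochberg adjustment over all 12997 genes, called at 0.05, and it stands behind every adjusted p given here. The median log2 fold change of the 10 genes was -0.35 in Smarca4+/- and -0.12 in Smarca4+/+ (-0.08 with genes at 0 set at their bound), beside -0.08 and -0.19 over all tested genes. That median over all genes depended on the scaling: in Smarca4+/+ it was -0.065 with RLE factors and -0.004 with plain totals, so changes are also given below relative to it.

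**Figure D2:**
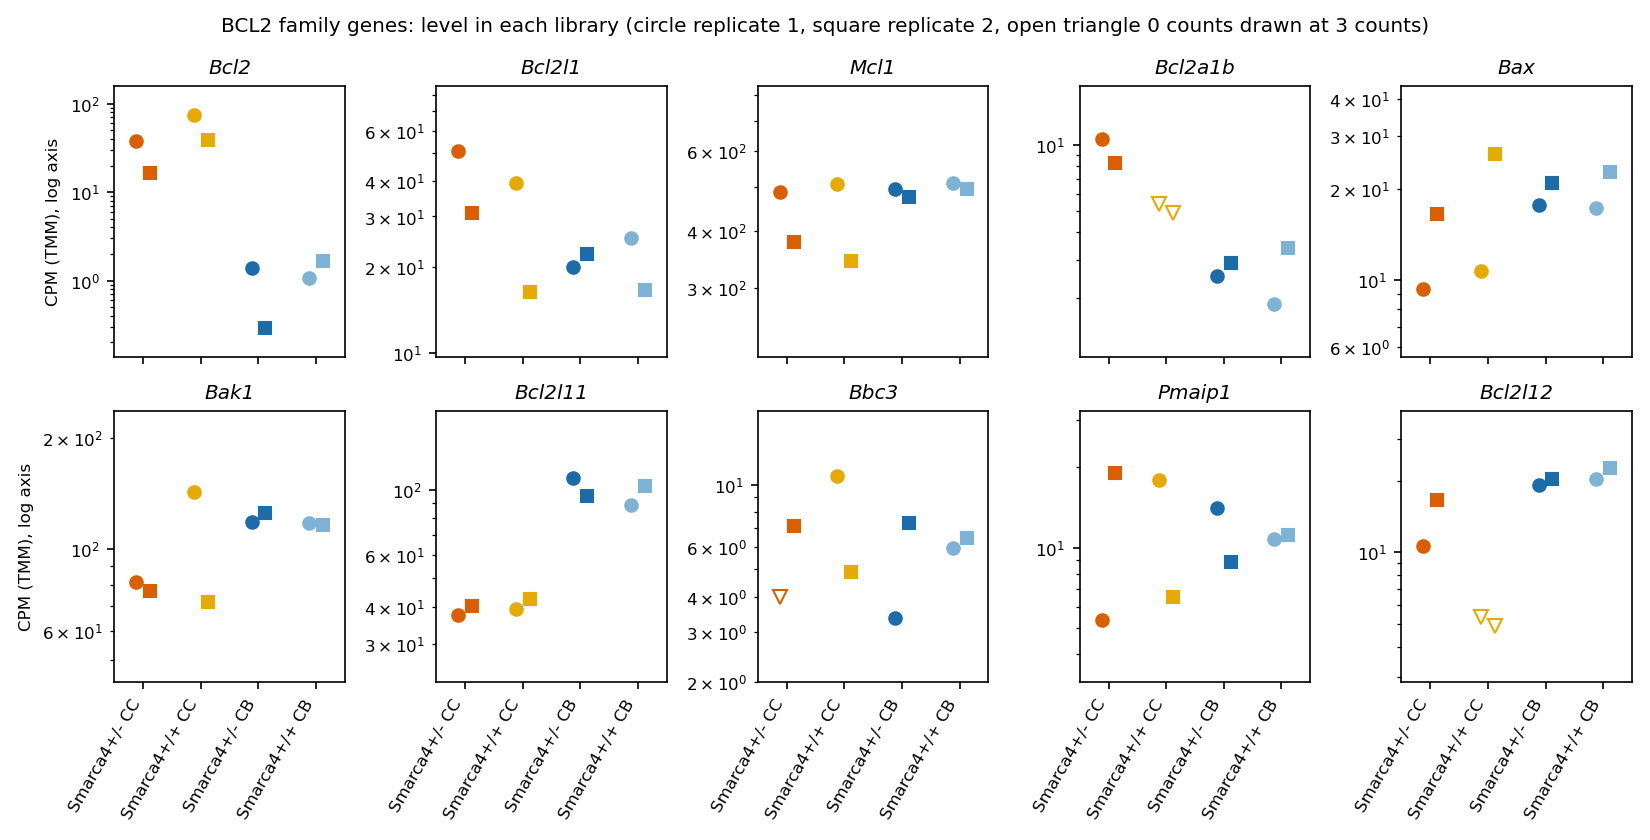
Level of each gene in each library (CPM, log axis, a separate axis per gene), for the 4 groups in the order Smarca4+/- CC, Smarca4+/+ CC, Smarca4+/- CB, Smarca4+/+ CB. Bcl2 is higher in all 4 CC libraries (16.6 to 75.05 CPM) than in any CB library (0.288 to 1.68 CPM), Bcl2l11 is lower in all 4, and Bcl2a1b and Bcl2l12 have no counts in Smarca4+/+ CC.

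Among the pro-survival genes, Bcl2 was higher in CC of both genotypes. It had 37.4 and 16.6 CPM (28 and 14 counts) in Smarca4+/- CC against 1.37 and 0.288 CPM (26 and 6 counts) in Smarca4+/- CB. In Smarca4+/+ it had 75.05 and 39.2 CPM (42 and 24 counts) in CC against 1.07 and 1.68 CPM (21 and 36 counts) in CB. No CC library overlapped with a CB library. At the CB level the CC libraries would have held 0.621 to 0.84 counts of Bcl2 each. The rise was 32.2-fold in Smarca4+/- (log2 fold change 5.01, SE 0.83, adjusted p = 0.00891) and 41.1-fold in Smarca4+/+ (log2 fold change 5.36, SE 0.82, adjusted p = 0.00364), or 5.09 and 5.55 on the log2 scale above the median of all genes. The Smarca4+/- call was lost without Smarca4+/- CB replicate 1 (adjusted p = 0.0709), Smarca4+/- CB replicate 2 (0.133) or Smarca4+/- CC replicate 1 (0.107), and the Smarca4+/+ call without Smarca4+/+ CB replicate 1 (0.0613), with log2 fold changes of 4.3 to 6.54. Part of Bcl2's exons (6.09%) lies opposite the gene D630008O14Rik, which had 0 counts in every library.

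Bcl2 lies on chromosome 1 (mm10, 106538178 to 106714274, minus strand). The 250 bases before its RefSeq start, and those of the other genes that passed a test, are printed because these genes carry the differences between the fractions. A match is a match of letters, not a binding site. Here and below, capitals mark a match to GGANTTTCC (NF-kB), GTAAACA (FOXO) or CACGTG (E-box) on either strand, in windows of 250 bases before to 50 after each start, which hold these motifs in 1.25%, 3.65% and 7.15% of 32851 mouse promoters. The Bcl2 window chr1:106714241-106714540 (GRCm38.p6, minus strand) held none of them. It was rich in GC (76.0%, against a median of 52.7% over the same promoters) and held 44 CpG, against a median of 7.
Bcl2, chr1:106714291-106714540: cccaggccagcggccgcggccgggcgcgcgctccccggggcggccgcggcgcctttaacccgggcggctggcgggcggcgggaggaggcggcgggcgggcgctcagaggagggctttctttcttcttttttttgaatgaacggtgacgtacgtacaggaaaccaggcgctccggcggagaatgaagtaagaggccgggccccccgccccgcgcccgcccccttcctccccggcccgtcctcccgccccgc

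Mcl1, the pro-survival gene on which germinal centre B cells are known to depend, showed little difference in any contrast. It had 487 and 378 CPM in Smarca4+/- CC and 509 and 345 in Smarca4+/+ CC, against 495 and 476 CPM in Smarca4+/- CB and 512 and 497 in Smarca4+/+ CB. The first library of each CC group lay at the CB level and the second below it. CC against CB gave a log2 fold change of -0.17 in Smarca4+/- (95% interval -0.63 to 0.29) and -0.24 in Smarca4+/+ (-0.71 to 0.22). Under TMM scaling this bounds any rise at 1.23-fold and 1.17-fold. The log2 fold changes were -0.05 and -0.11 with RLE factors and -0.04 and -0.05 with total counts, so these bounds depend on the scaling. The promoter window of Mcl1 held none of the 3 motifs.

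Bcl2l1, which encodes the pro-survival protein BCL-XL, had 50.7 and 30.8 CPM in Smarca4+/- CC against 20.03 and 22.2 in Smarca4+/- CB, so that both CC libraries lay above both CB libraries. In Smarca4+/+ the groups overlapped, with 39.3 and 16.4 CPM in CC against 25.1 and 16.5 in CB. The log2 fold changes were 0.94 (SE 0.49, adjusted p = 0.336) and 0.41 (SE 0.52, adjusted p = 0.652), and neither passed.

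Bcl2a1b encodes a copy of A1, a pro-survival protein induced by NF-kB signalling in B cells. It had 8 and 7 counts in Smarca4+/- CC (10.7 and 8.30 CPM) and 0 counts in both Smarca4+/+ CC libraries, against 48 and 60 counts in Smarca4+/- CB (2.53 and 2.88 CPM) and 37 and 73 in Smarca4+/+ CB (1.88 and 3.41 CPM). In Smarca4+/- the log2 fold change of CC against CB was 1.80 (SE 0.92, adjusted p = 0.332). In Smarca4+/+ CC the CB level would have given only 1.48 and 1.62 counts, so a drop could not be detected at this depth. Smarca4+/- CC lay at least 3.71-fold above Smarca4+/+ CC, or at least 1.97-fold from halved counts, which did not pass the adjusted test (adjusted p = 0.199, edgeR). Granulocyte markers moved the same way. The 10 markers summed to 417 and 97.2 CPM in Smarca4+/- CC against 17.9 and 0 in Smarca4+/+ CC, and to 13.5 and 4.71 CPM in Smarca4+/- CB against 6.10 and 1.03 in Smarca4+/+ CB. In Smarca4+/+ CC 9 of the 10 were at 0 in both libraries, S100a8 and S100a9 among them, and in Smarca4+/- CC 2 were. Of the 5 markers tested in CC all 5 had positive log2 fold changes between genotypes and 0 passed. Their part in the Bcl2a1b difference was not tested.

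Reads of Bcl2a1b are hard to tell from those of its copies Bcl2a1a and Bcl2a1d on the same chromosome. Over 516 coding bases Bcl2a1b was 97.9% identical to Bcl2a1a and 98.8% to Bcl2a1d. In its GENCODE M21 transcript, 20.8% of the 50-base stretches and 43.2% of the 100-base stretches occurred in no other gene. The first 60 coding bases hold 6 of the 12 positions at which the copies differ, printed in capitals to show what a read must cover to be assigned.
Bcl2a1b: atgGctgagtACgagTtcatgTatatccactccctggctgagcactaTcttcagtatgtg
Bcl2a1a: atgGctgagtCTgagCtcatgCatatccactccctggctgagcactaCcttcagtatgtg
Bcl2a1d: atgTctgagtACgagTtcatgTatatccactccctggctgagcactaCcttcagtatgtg
Both other copies were sparse in CC. Bcl2a1d had 0 and 2 counts in Smarca4+/- CC and 0 and 12 in Smarca4+/+ CC, against 56 and 84 in Smarca4+/- CB and 82 and 88 in Smarca4+/+ CB. Bcl2a1a had at most 8 counts in any library, reached in Smarca4+/+ CB. As the labels do not say what became of reads that fit more than 1 copy, the level of each copy is uncertain. Of the Bcl2a1b exons, 49.1% are also shared with the predicted gene Gm29094 on the same strand, which had 0 counts throughout.

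The effectors Bax and Bak1, which form the pores in the mitochondrial membrane, did not pass in any contrast. Bak1 had 81.5 and 77.1 CPM in Smarca4+/- CC against 118 and 125 in Smarca4+/- CB, without overlap, and 143 and 71.9 CPM in Smarca4+/+ CC against 118 and 116 in Smarca4+/+ CB, where the CC libraries lay on either side of the CB libraries. The log2 fold change was -0.62 in Smarca4+/- (SE 0.30, adjusted p = 0.30) and -0.13 in Smarca4+/+ (SE 0.30, adjusted p = 0.811). Bax had 9.35 and 16.6 CPM in Smarca4+/- CC against 17.8 and 21.0 in Smarca4+/- CB, and 10.7 and 26.2 CPM in Smarca4+/+ CC against 17.3 and 22.9 in Smarca4+/+ CB. The CC values of Bax rest on 7 and 14 counts in Smarca4+/- and 6 and 16 in Smarca4+/+. Its log2 fold changes were -0.57 (SE 0.57) and -0.11 (SE 0.57). The 95% intervals of Bax ran from 0.283-fold to 1.61-fold in Smarca4+/- and from 0.389-fold to 2.2-fold in Smarca4+/+. Changes within those bounds are not excluded. In Smarca4+/+ the sign of Bax turned with RLE or total count scaling (0.01 and 0.08) and that of Bak1 with total count scaling (0.06). Bak1 shares 18.2% and 7.35% of its exons with 2 entries of Ggnbp1 on the opposite strand, and Bax shares 12.2% with Gm45808.

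Among the BH3-only genes, Bcl2l11 was lower in CC of both genotypes. It encodes BIM, a main trigger of death in B cells that lose survival signals. It had 37.4 and 40.3 CPM (28 and 34 counts) in Smarca4+/- CC against 109 and 94.96 CPM in Smarca4+/- CB. In Smarca4+/+ it had 39.3 and 42.5 CPM (22 and 26 counts) in CC against 88.7 and 103 CPM in CB. The 4 CC libraries lay between 37.4 and 42.5 CPM, below every CB library. Bcl2l11 fell 2.62-fold in Smarca4+/- (log2 fold change -1.39, SE 0.28, adjusted p = 0.021) and 2.34-fold in Smarca4+/+ (-1.23, SE 0.29, adjusted p = 0.0262), or -1.31 and -1.04 relative to the median of all genes. With the CB libraries thinned to the CC depth neither passed (log2 fold change -1.22, adjusted p = 0.0725, and -0.76, adjusted p = 0.242), and the Smarca4+/+ call was also lost with total count scaling (adjusted p = 0.0779) and with only the 2 groups fitted (0.0775). The Smarca4+/- call was lost without Smarca4+/- CB replicate 1 (adjusted p = 0.277) or 2 (0.163) or Smarca4+/- CC replicate 1 (0.126), with log2 fold changes of -1.23, -1.45 and -1.36. The Smarca4+/+ call was lost without Smarca4+/+ CB replicate 1 (adjusted p = 0.136) or 2 (0.25) or Smarca4+/+ CC replicate 1 (0.0552), with log2 fold changes of -1.3, -1.06 and -1.18.

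Bcl2l11 lies on chromosome 2 (mm10, 128126038 to 128162547, plus strand). Of its RefSeq promoter windows, chr2:128125788-128126087 held a FOXO motif, a sequence bound by FOXO factors, which are known to activate Bcl2l11. The motif begins at -227 from the start and is in capitals. The other Bcl2l11 window, chr2:128127325-128127624, held none of the 3 motifs.
Bcl2l11, chr2:128125788-128126037: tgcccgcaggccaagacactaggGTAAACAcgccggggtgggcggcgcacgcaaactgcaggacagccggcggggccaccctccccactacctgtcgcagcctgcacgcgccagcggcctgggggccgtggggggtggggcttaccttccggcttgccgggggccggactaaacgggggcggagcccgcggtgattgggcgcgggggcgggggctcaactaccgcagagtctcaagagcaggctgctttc

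Bbc3 and Pmaip1, the p53 targets that encode PUMA and NOXA, were too sparse in CC for a precise comparison. Bbc3 had 0 and 6 counts in Smarca4+/- CC and 6 and 3 in Smarca4+/+ CC, against 3.37 and 7.30 CPM in Smarca4+/- CB and 5.94 and 6.44 CPM in Smarca4+/+ CB. Pmaip1 had 4 and 16 counts in Smarca4+/- CC and 10 and 4 in Smarca4+/+ CC, against 14.1 and 8.84 CPM in Smarca4+/- CB and 10.8 and 11.1 CPM in Smarca4+/+ CB. In each CC group the libraries of Pmaip1 fell on both sides of the CB levels. The 95% interval for Pmaip1 ran from 0.36-fold to 3.21-fold in Smarca4+/- and from 0.351-fold to 3.48-fold in Smarca4+/+. Changes within those bounds are not excluded at this depth. Of the Bbc3 windows, chr7:16310011-16310310 held a FOXO motif and chr7:16310181-16310480 an E-box, and the Bax window held 2 E-boxes.

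Bcl2l12 encodes a proline-rich relative of the family that has been described in human glioma cells as a caspase inhibitor. It had 8 and 14 counts in Smarca4+/- CC (10.7 and 16.6 CPM) and 0 in both Smarca4+/+ CC libraries, against 365 and 422 counts in Smarca4+/- CB (19.2 and 20.3 CPM) and 399 and 486 in Smarca4+/+ CB (20.3 and 22.7 CPM). At the Smarca4+/+ CB level the 2 Smarca4+/+ CC libraries would have held 12 and 13.1 counts. Other genes were also at 0 in both of these libraries, among them Endog, Cdkn1a, Bnip3 and Zbtb32. Bcl2l12 was at least 8.39-fold lower in Smarca4+/+ CC than in Smarca4+/+ CB (adjusted p = 0.0101), or at least 4.21-fold lower from halved counts (adjusted p = 0.00688), while in Smarca4+/- CC against Smarca4+/- CB the log2 fold change was -0.53 (SE 0.55, adjusted p = 0.651). The Smarca4+/+ call was lost without Smarca4+/+ CB replicate 1 (adjusted p = 0.0531) or 2 (0.0612) and with only the 2 groups fitted (0.0774).

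Bcl2l12 was also the gene with the smallest p of the 10 between genotypes in CC: Smarca4+/- CC lay at least 5.33-fold above Smarca4+/+ CC, or at least 2.66-fold from halved counts (adjusted p = 0.124, and 0.21 from halved counts, edgeR). The granulocyte markers given with Bcl2a1b were also higher in Smarca4+/- CC than in Smarca4+/+ CC. In Smarca4+/- CC replicates 1 and 2 they summed to 417 and 97.2 CPM, and Bcl2l12 had 10.7 and 16.6. In CB they summed to 1.03 to 13.5 CPM, and Bcl2l12 had 19.2 to 22.7 CPM. Their part in the genotype difference was not tested. Whether the fraction difference itself differed between genotypes did not pass either (interaction, adjusted p = 0.419, edgeR). DESeq2 called both (adjusted p = 0.0132 and 0.0278), and edgeR without the low count filter called the first (0.0238). Bcl2l12 lies on chromosome 7 (mm10, 44991222 to 44998712, minus strand), where 4.45% of its exons lie opposite Irf3 and 28.9% opposite Gm15545. Without the strand setting their reads cannot be told apart. Gm15545 had 4 counts in each Smarca4+/- CC library and 0 in both Smarca4+/+ CC libraries, against 54 and 47 in Smarca4+/- CB and 38 and 47 in Smarca4+/+ CB. Irf3 had 85.5 and 80.6 CPM in Smarca4+/- CC against 42.9 and 58.9 in Smarca4+/+ CC (log2 fold change 0.70, adjusted p = 0.333). The upstream bases held none of the 3 motifs.
Bcl2l12, chr7:44997580-44997829: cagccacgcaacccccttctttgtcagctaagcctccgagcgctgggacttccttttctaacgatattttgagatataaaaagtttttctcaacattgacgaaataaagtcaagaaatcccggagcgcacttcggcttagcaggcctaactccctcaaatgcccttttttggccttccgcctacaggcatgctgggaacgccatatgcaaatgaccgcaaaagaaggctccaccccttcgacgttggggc

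**Figure D3:**
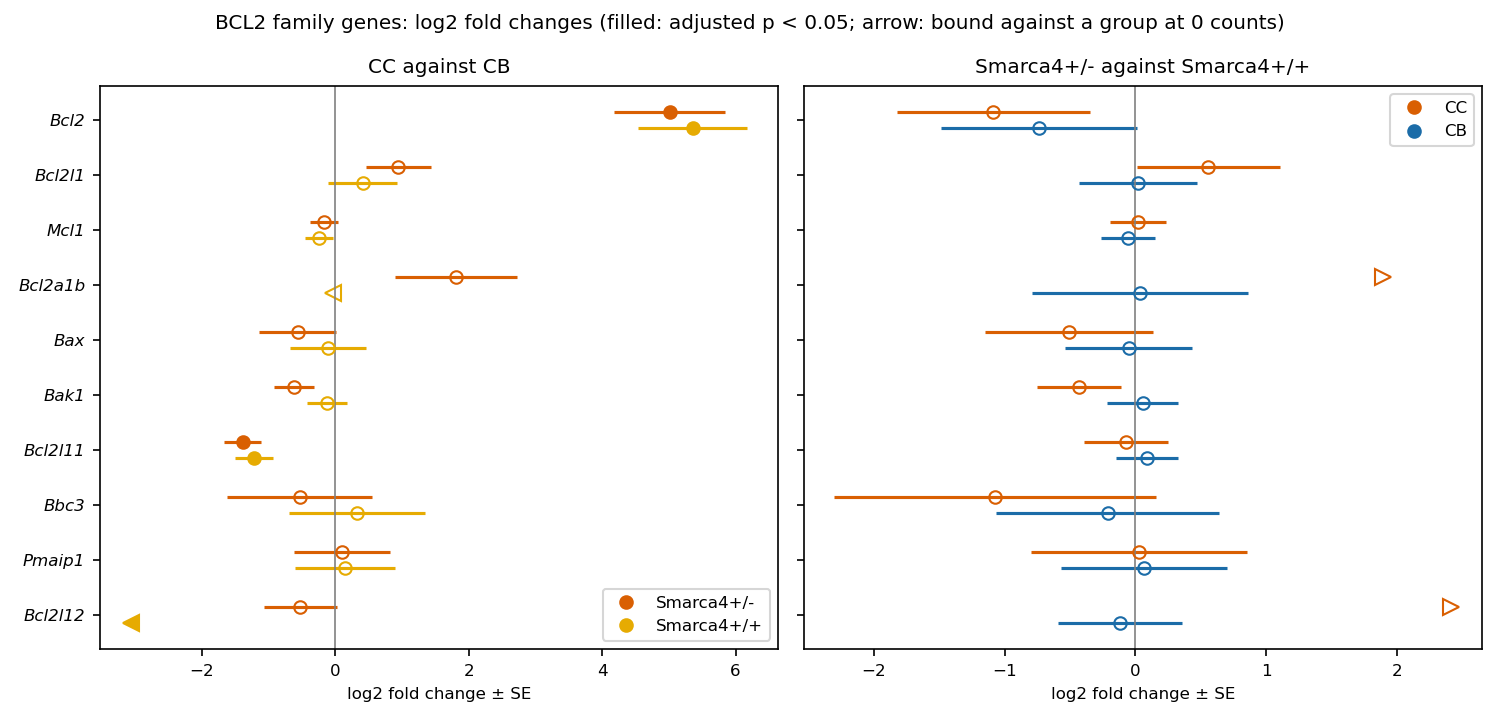
Log2 fold change with its SE for each gene, CC against CB on the left (orange Smarca4+/-, yellow Smarca4+/+) and Smarca4+/- against Smarca4+/+ on the right (orange CC, blue CB). Filled marks passed at an adjusted p of 0.05, and arrows are bounds against a group with 0 counts, which have no SE. Bcl2 and Bcl2l11 are filled in both genotypes on the left, and no mark is filled on the right.

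The genotype contrasts ask what the loss of 1 Smarca4 copy alters within a fraction, and none of the 10 genes passed in either. In CC 0 of 10 passed, where 0.0231% of all tested genes did (3 of 12997), and 2 of the 10 had an unadjusted p under 0.05, as did 1980 of all genes (15.2%). DESeq2 called 2 of the 10 in CC, Bcl2l12 and Bcl2a1b (adjusted p = 0.047), among 725 of the 11205 genes it tested there. In CB 0 of 10 passed, where 0% of all tested genes did, with 0 of the 10 and 84 of all genes (0.646%) at an unadjusted p under 0.05. DESeq2 called 0 of the 10 there, and 2 of all genes. The interaction of genotype and fraction gave 0 of 10, where 0% of all tested genes passed. There 2 of the 10 and 1195 of all genes (9.19%) had an unadjusted p under 0.05. DESeq2 called 1 of the 10 for the interaction, among 253 of the 10821 genes it tested.

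In CB the genes were close between genotypes where counts were high. The log2 fold change of Smarca4+/- against Smarca4+/+ was -0.06 for Mcl1 (95% interval -0.51 to 0.40, its sign turning to 0.02 with total count scaling), 0.06 for Bak1 (-0.54 to 0.65) and 0.09 for Bcl2l11 (-0.44 to 0.62). For Bcl2, with few counts, the interval reached from 0.192-fold to 1.87-fold. In CC, Bcl2 averaged 27.0 ± 14.7 CPM in Smarca4+/- and 57.1 ± 25.3 CPM in Smarca4+/+ (SD, n = 2 each). Both Smarca4+/- libraries lay below both Smarca4+/+ libraries, but the nearest were 37.4 and 39.2 CPM, and the log2 fold change of -1.09 (SE 0.74, adjusted p = 0.481) did not pass. Mcl1 in CC differed by 0.02 on the log2 scale (95% interval -0.46 to 0.49), and by -0.24 to 0.31 with 1 CC library left out.

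The share of each gene in the reads of the 10 genes needs no scaling between libraries. Mcl1 took 61.9% to 66.7% of them in Smarca4+/- CC, 60.3% to 62.4% in Smarca4+/+ CC, 61.1% to 61.8% in Smarca4+/- CB and 62.0% to 63.9% in Smarca4+/+ CB. Bcl2 took 5.12% (95% Wilson interval 3.57% to 7.30%) and 2.72% (1.63% to 4.51%) in Smarca4+/- CC and 8.88% (6.64% to 11.8%) and 7.10% (4.82% to 10.3%) in Smarca4+/+ CC, against 0.037% to 0.171% in Smarca4+/- CB and 0.133% to 0.210% in Smarca4+/+ CB. Bcl2l11 took 5.12% and 6.60% in Smarca4+/- CC and 4.65% and 7.69% in Smarca4+/+ CC, against 12.2% to 13.6% in Smarca4+/- CB and 11.1% to 12.9% in Smarca4+/+ CB. For Bcl2 and Bcl2l11 the intervals of the CC libraries did not overlap with those of any CB library, except that Bcl2l11 in Smarca4+/+ CC replicate 2 reached 11%, against a lower bound of 10.6% in Smarca4+/+ CB replicate 1. From halved counts the same library reached 12.6% and overlapped with 3 of the 4 CB libraries, whose lower bounds were 11.5% in Smarca4+/- CB replicate 2 and 10.4% and 12.2% in Smarca4+/+ CB, while the other Bcl2l11 intervals and those of Bcl2 still did not overlap between CC and CB. Within the reads of the 4 pro-survival genes alone, Mcl1 took a smaller share in CC. This share was 83.1% and 87.2% in Smarca4+/- CC, against 95.4% and 94.9% in Smarca4+/- CB. In Smarca4+/+ it was 81.7% and 86.1% in CC, against 94.8% and 95.8% in CB.

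**Figure D4:**
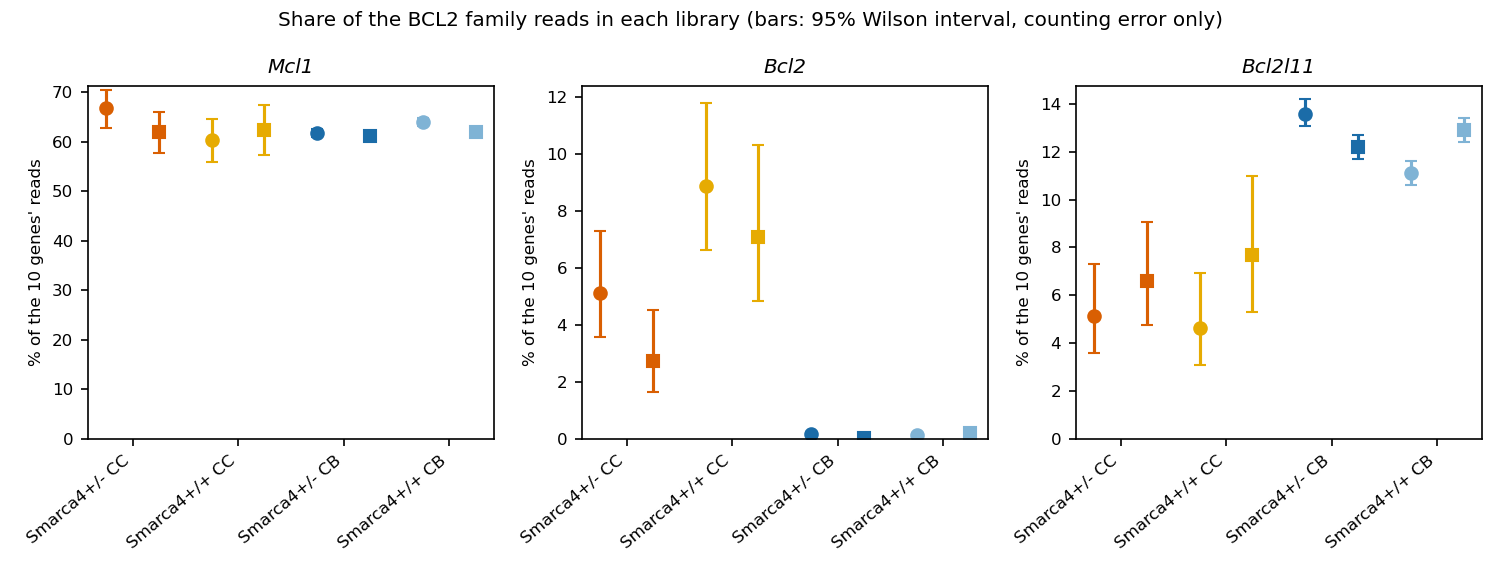
Share of Mcl1, Bcl2 and Bcl2l11 in the reads of the 10 genes (percent), 1 point per library with its 95% Wilson interval, which covers counting error only. Mcl1 lies between 60.3% and 66.7% in all 8 libraries, Bcl2 is at 2.72% or more in CC and at 0.210% or less in CB, and Bcl2l11 is at 7.69% or less in CC and at 11.1% or more in CB.

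Of 13 further family genes, 8 passed the filter and 0 passed the test in any of the 5 contrasts, with at most 1 gene at an unadjusted p under 0.05 in any (0.646% to 23.3% of all tested genes). Bid, a BH3-only gene that caspase cleavage activates, stood at 167 ± 90.8 CPM in Smarca4+/- CC, 119 ± 21.5 in Smarca4+/+ CC, 105 ± 5.38 in Smarca4+/- CB and 114 ± 8.58 in Smarca4+/+ CB, with SD over n = 2 each. Bok, Hrk and Bcl2l10 had 0 counts in all 8 libraries. Downstream of the family, 0 of 11 apoptosome and caspase genes and 0 of 4 caspase inhibitors passed in any contrast, with at most 2 at an unadjusted p under 0.05 in any contrast. Of 9 death receptor genes 1 passed in each fraction contrast, Tnfrsf1a, which encodes a TNF receptor: it had 22.1 CPM in Smarca4+/- CC against 1.02 in Smarca4+/- CB, and 25.1 in Smarca4+/+ CC against 0.292 in Smarca4+/+ CB (log2 fold changes 4.40 and 6.38, adjusted p = 0.0221 and 0.00392). Of 8 tested p53 pathway genes 1 passed in the Smarca4+/- contrast and 0 in the Smarca4+/+ contrast. Trp53inp1, a p53 target that promotes death and autophagy, fell to 71.8 CPM in Smarca4+/- CC, against 207 in Smarca4+/- CB (log2 fold change -1.53, SE 0.25, adjusted p = 0.00816). In Smarca4+/+ its log2 fold change was -0.50 (adjusted p = 0.237), and the interaction did not pass (adjusted p = 0.437). Of 14 regulators of the levels or activity of the family, 0 passed in any contrast.

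Markers of other cells rose in CC along with Bcl2. T cells are known to express Bcl2. Their markers summed to 409 and 262 CPM in Smarca4+/- CC and 727 and 883 in Smarca4+/+ CC, against 159 to 163 in Smarca4+/- CB and 177 to 192 in Smarca4+/+ CB, and 8 and 12 of 16 rose in Smarca4+/- and Smarca4+/+ CC. Cd3e, which defines T cells, had 34.7 and 7.11 CPM in Smarca4+/- CC and 50.03 and 98.1 in Smarca4+/+ CC, against 0.158 and 0.576 in Smarca4+/- CB and 0 counts in Smarca4+/+ CB. Macrophage and monocyte markers summed to 2110 to 4880 CPM in Smarca4+/- CC and 3900 to 4030 in Smarca4+/+ CC, against 96.9 to 149 in Smarca4+/- CB and 69.7 to 344 in Smarca4+/+ CB, with 15 and 13 of 17 risen. Memory and naive B cell genes, marking B cells that also carry Bcl2, summed to 777 to 1140 CPM in Smarca4+/- CC and 1300 to 1390 in Smarca4+/+ CC, against 259 to 292 in Smarca4+/- CB and 280 to 365 in Smarca4+/+ CB, with 6 and 9 of 11 risen. Erythroid markers summed to 147 to 491 CPM in Smarca4+/- CC and 722 to 811 in Smarca4+/+ CC, against 8.17 to 11.7 in Smarca4+/- CB and 14.1 to 17.6 in Smarca4+/+ CB. In these bulk libraries a change in the cells present and a change in RNA per cell cannot be told apart, and the part of these cells in the rise of Bcl2 was not tested.

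**Figure D5:**
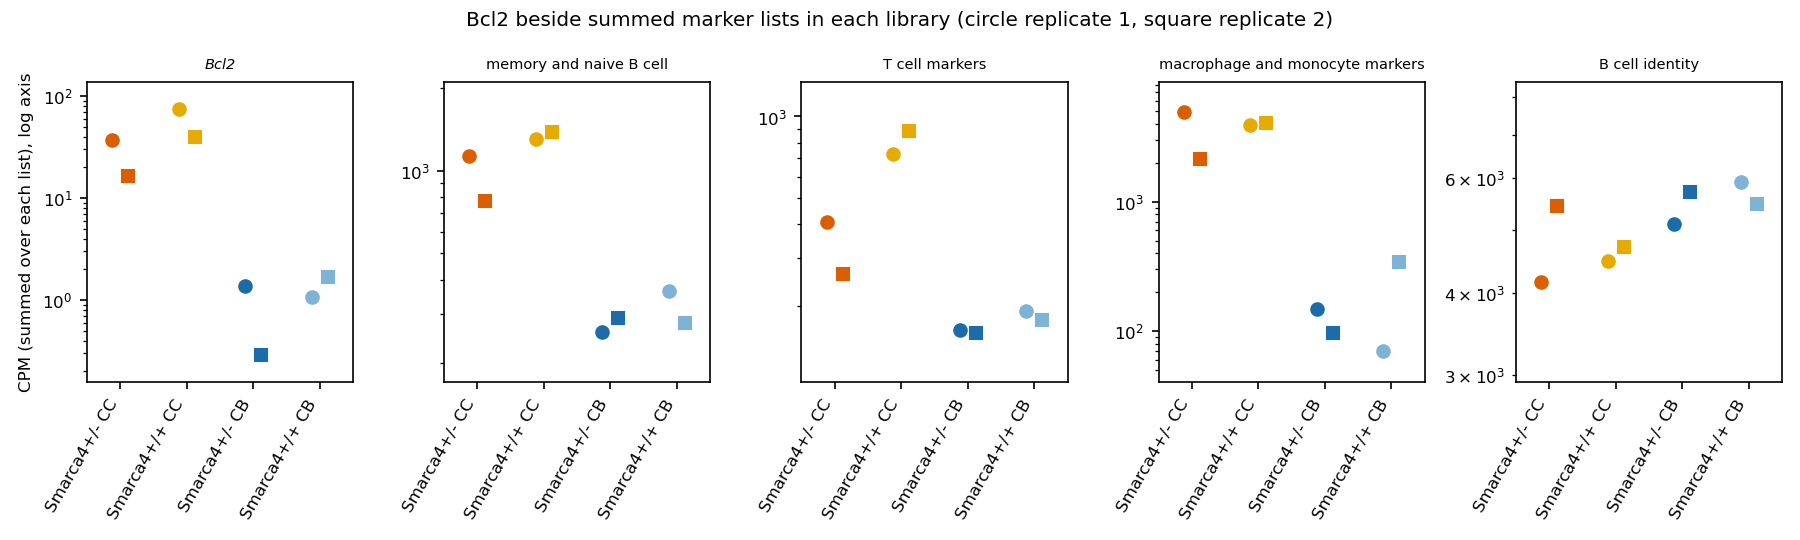
Bcl2 (CPM) and the summed CPM of 4 marker lists in each library, on log axes, for the 4 groups in the order Smarca4+/- CC, Smarca4+/+ CC, Smarca4+/- CB, Smarca4+/+ CB. Bcl2, memory and naive B cell genes, T cell markers and macrophage markers are all higher in every CC library than in any CB library, while B cell identity genes stay between 4160 and 5930 CPM.

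The genes whose log2 CPM followed Bcl2 most closely over the 8 libraries, among 5217 candidates with enough CC counts, were Cd8a (Pearson r = 0.993), Bach1 (0.989), Arl4c (0.987), Mpeg1 (0.987) and Slfn5 (0.986). Cd8a, a marker of cytotoxic T cells, averaged 14.1 CPM in Smarca4+/- CC and 52.8 in Smarca4+/+ CC, against 0.290 in Smarca4+/- CB and 0.543 in Smarca4+/+ CB. Among the closest to Mcl1 were Chuk (r = 0.974), Zfp407 (0.97), Prkacb (0.966) and Usp28 (0.962). These r values describe the libraries, which share the split by fraction and depth, and carry no p.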

How the data were processed

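The authors deposited raw counts of reads for each gene, without normalization, beside a deposited length column in bases (the other unit), which was used for levels per kilobase. Libraries were ribosomal RNA depleted total RNA, per the labels' protocols. FastQC, STAR, featureCounts, Subread, R 4.2.1 and mm10 are named, per the submitters' processing notes. For STAR and featureCounts the version is not given in the sources used here, and neither are the strand option and the rule for multi-mapping reads. Symbols were found for 55154 of 55421 identifiers, and 54587 matched GENCODE M21 with their version.

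Counts were analysed as deposited in R 4.3.3 with edgeR 4.0.16: filterByExpr (minimum count 10, minimum total 15), TMM scaling, and 1 quasi-likelihood fit of all 8 libraries with a mean per group (4 residual degrees of freedom). The 5 contrasts were tested 2-sided at an adjusted p of 0.05. Standard errors come from the fold change and its F, and 95% intervals are not adjusted. The fit and its contrasts were also run on counts simulated from its own fitted spread. Those counts lack the excess of even values, so they cannot show how the fit behaves under it. Wilson intervals and floors of 3 counts cover counting error only. The fit has no replicate block, as the labels give no pairing of libraries. Same-numbered libraries did not deviate together (correlations -0.046 to 0.0527). With CC counts this sparse, paired libraries could also give low correlations, so these values cannot exclude pairing. Alternatives were DESeq2 1.42.0, RLE and total count scaling, no filter, only the groups compared, a replicate block, CB libraries thinned to 657641 counts, each library left out in turn (a lone library is then assumed to vary like the other groups) and, chosen after seeing the data, counts halved and rounded up.

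The 10 genes, the lists and the tests were chosen with earlier results of these data known. The text names all 10 genes, up to 4 called genes of a list per contrast, and the 5 genes most like Bcl2 and Mcl1, of which 1 is not reported here. The overlapping genes were named after their values were seen. Promoters are from RefSeq (GRCm38.p6). Chromosome 18, which holds Pmaip1, was left out of the genes searched and of the promoters they were set against. The other 9 of the 10 genes matched. Bcl2a1 coding sequences and exon overlaps are from GENCODE M21.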

Additional observations from a re-analysis of the deposited data

How the results depend on the processing

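Of the 10 genes, 2 passed in CC against CB of Smarca4+/- and 3 in Smarca4+/+ in the fit reported above. With only the groups compared fitted, 1 passed in Smarca4+/+, beside 292 of all 11953 genes tested. With CB thinned to the CC depth 1 passed in Smarca4+/-, beside 274 of all 8229. With total counts 2 passed in Smarca4+/+, beside 857 of all 12997. Leaving out 1 library at a time gave 0 to 2 of the 10 in Smarca4+/- (0 to 932 of all genes) and 0 to 3 in Smarca4+/+ (222 to 1131 of all genes). Between genotypes in CC, DESeq2 called 2 of the 10 and the fit without a low count filter 1, and in the interaction DESeq2 called 1. With a replicate block 2 of the 10 passed in Smarca4+/- (443 of all genes) and 3 in Smarca4+/+ (812), and within genotype the block turned Pmaip1 to -0.03 in Smarca4+/-. Over all genes the calls numbered, for DESeq2, 1384 in the Smarca4+/- and 2047 in the Smarca4+/+ fraction contrast, 725 for genotype in CC, 2 in CB and 253 for the interaction. They numbered 1142, 1651, 323, 13 and 46 in that order without the filter. With only the groups compared the calls were 308 and 292 for the fractions and 5 for genotype in CB. With thinned CB they were 274 and 628 for the fractions, 6 for genotype in CC and 2 for the interaction. With halved counts they were 979 in Smarca4+/-, 29 for genotype in CC and 3 for the interaction, and the replicate block gave 1 for the interaction, or 13 within genotype. Leaving out a library gave 0 to 3 for genotype in CC, 0 to 1 in CB and 0 to 1 for the interaction.

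No gene that had passed turned its sign. Those that turned were uncalled. For CC against CB in Smarca4+/+, Bax gave 0.01 with DESeq2 and with RLE factors, 0.08 with total counts and 0.37 with thinned CB, Bak1 0.06 with total counts and Pmaip1 -0.49 with thinned CB. For genotype in CB, total counts gave 0.02 for Mcl1 and Bax, and thinned CB gave 0.65 for Bax, -0.17 for Bak1 and -1.14 for Pmaip1. For genotype in CC, Pmaip1 gave 0 with DESeq2 and -0.01 with thinned CB. With 1 library left out the log2 fold changes that crossed 0 were, in Smarca4+/- CC against CB, -8.99 to 0.39 for Bbc3 and -1.13 to 0.71 for Pmaip1. In Smarca4+/+ they were -0.36 to 0.9 for Bcl2l1, -0.56 to 0 for Mcl1, -0.92 to 0.37 for Bax, -0.71 to 0.27 for Bak1, -0.34 to 0.78 for Bbc3 and -0.75 to 0.7 for Pmaip1. Between genotypes in CC they were -0.24 to 0.31 for Mcl1, -1.01 to 0.28 for Bax, -0.86 to 0.13 for Bak1 and -1.18 to 0.91 for Pmaip1. In CB they were -0.24 to 0.34 for Bcl2l1, -0.25 to 0.17 for Bax, -0.03 to 0.22 for Bcl2l11 and -0.3 to 0.37 for Pmaip1. The causes were not tested. The CC depth limits what could be seen of Bax, Bbc3, Pmaip1, Bcl2a1b and Bcl2l12, whose CC counts were 16 or fewer per library.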

Other observations

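Even counts were over-represented among the low counts of every library and most of all in Smarca4+/+ CC, where 89.7% and 92% of genes with 1 to 20 counts had an even count. In the smaller of those libraries 1355 genes had exactly 2 counts and 167 had exactly 1. Of the 17 CC values of the 10 genes between 1 and 20 counts, 14 were even and 3 odd, and of the 18 values above 20 counts, 12 were even and 6 odd. With counts halved and rounded up, 2 and 3 of the 10 genes passed in the Smarca4+/- and Smarca4+/+ fraction contrasts, and 979 and 1369 of the 12016 genes tested at that setting.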
